A study of Mus musculus with 22 samples.

Results

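The angiopoietins Angpt1 and Angpt2, their receptor Tek (Tie2), the related receptor Tie1 and the angiopoietin-like genes Angptl2 and Angptl4 were examined in experimental granulation tissue of Mmp13-/- and WT mice. The members were all probe sets that the platform annotation gave to 1 of these 6 genes alone. Of these, 5 were measured, by 8 of the 45037 probe sets tested (5 of 18193 genes with a probe set of their own). No probe set was annotated to Angptl2 alone here, and Angptl2 was not analysed here. Where a gene had more than 1 probe set, the one with the highest mean over all arrays stood for it, and the other is given where it differed.

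A viscose cellulose sponge (VCS), a carrier that is invaded by cells and vessels, had been implanted under the back skin of mice 5 to 8 weeks old, and its ends were taken for RNA 7, 14 or 21 d later. Mice lacking Mmp13, which encodes the collagenase MMP-13, in all cells (Mmp13-/-) were set against WT mice bred from heterozygotes of the same backcross. The labels give both genotypes a mixed C57BL/6 x 129 background, the design text describes a backcross towards C57BL6, and all mice carried the sponge. Each of the 22 arrays held RNA of 1 mouse, with 3 per genotype at 7 d and 4 per genotype at 14 d and at 21 d. The tissue was analysed in bulk, so fewer cells of a type and less RNA per cell cannot be told apart.

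Angiopoietin-1 is made mainly by mural and stromal cells and activates the receptor tyrosine kinase Tie2 on endothelium, which steadies vessels. Angiopoietin-2 is made by endothelial cells where vessels are remodelled and, depending on context, blocks or weakly activates the same receptor. Tie1 binds no angiopoietin on its own but joins Tie2 at the cell surface and modulates its signal. In granulation tissue, new capillaries grow in and are later pruned, and this system takes part in both.

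The signals are RMA values on the log2 scale, so a difference of 1 is a doubling of signal, and signals of different probe sets cannot be set against each other. The arrays came from 2 hybridization series, which differed in RNA input (2 µg and 250 ng) and labelling kit. Series 1 held 12 arrays (all of 7 d and replicates 1 to 3 of 14 d) and series 2 held 10 (replicate 4 of 14 d and all of 21 d), with both genotypes equally in each. The model, fitted with limma over all probe sets, therefore had the 6 genotype-by-day groups and a term for the series, and probe sets with a p under 0.05 after Benjamini-Hochberg adjustment were called. Arrays of 1 group correlated at 0.977 to 0.996. Mmp13 itself averaged 8.37, 8.31 and 7.91 in Mmp13-/- tissue at 7, 14 and 21 d, against 10.69, 11.72 and 11.17 in WT tissue. One array, WT 7 d replicate 1, had the lowest mean of 19 endothelial markers, and results that rest on it are given with and without it.

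No member was called in any of the 10 comparisons between genotypes or days. At 14 d and at 21 d the signal of all 5 measured genes was on average lower in Mmp13-/- than in WT tissue, and at 7 d 3 were higher and 2 lower, without passing the test. The median difference of the 5 genes (Mmp13-/- minus WT, log2) was 0.12 at 7 d, -0.35 at 14 d and -0.61 at 21 d, beside a median within 0.01 of 0 over all 18193 genes on each day. The widest separations were at 21 d, in Angpt1 and Tek. Several of the 95% confidence intervals held both no difference and one as large as that of Tek at 21 d, so a missing call does not show that the genotypes were alike.

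**Figure D1:**
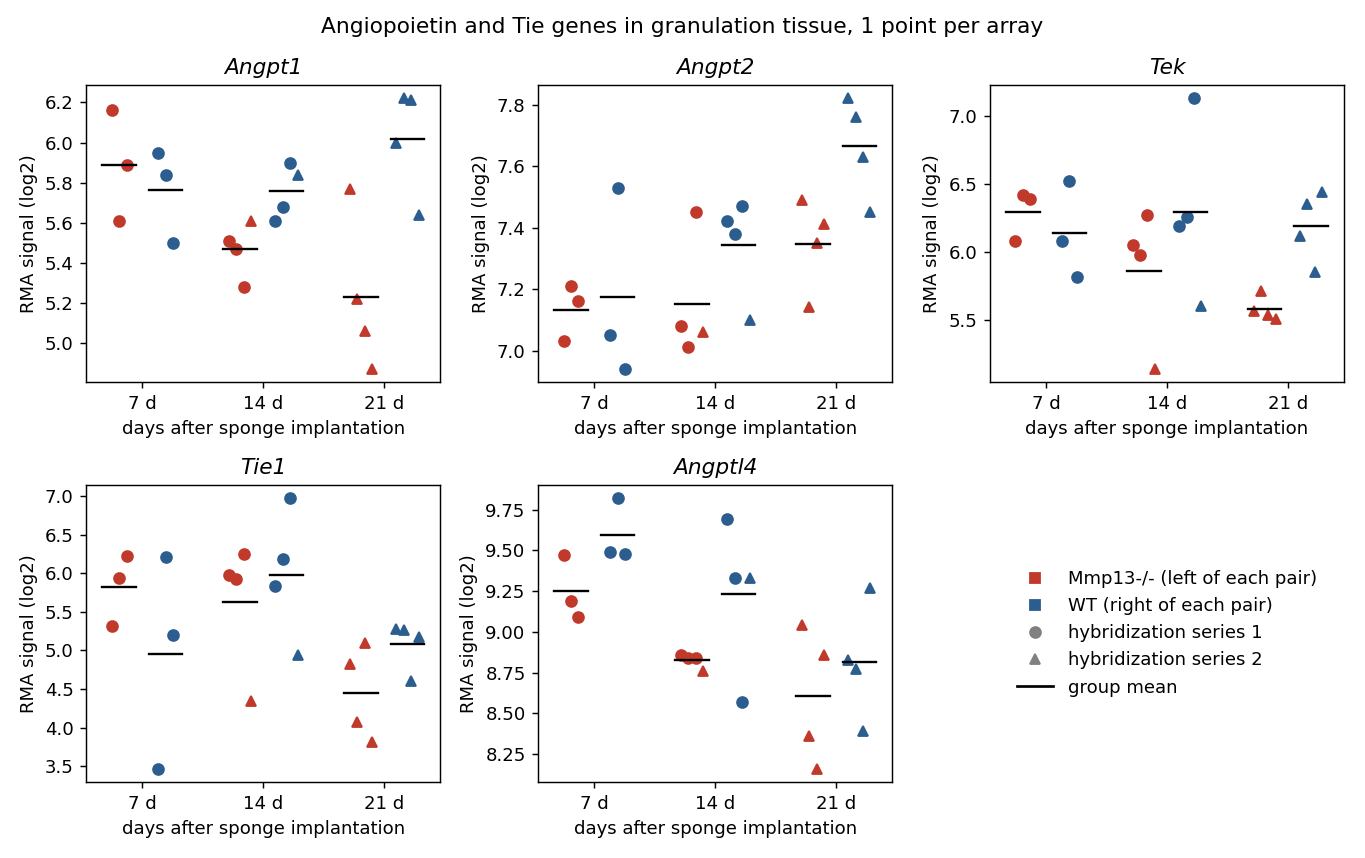
RMA signal (log2) of the 5 measured genes on each array, by day after implantation, with Mmp13-/- mice (red) left of WT mice (blue) and the group mean as a bar. Circles are hybridization series 1 and triangles series 2. At 21 d all 4 Mmp13-/- arrays of Tek lie below all 4 WT arrays, and in Angpt1 only Mmp13-/- replicate 1 (5.77) reaches into the WT range.

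Of the ligands, Angpt1 had the largest genotype difference among the members at 21 d. Its signal at 21 d was 5.77, 5.22, 5.06 and 4.87 in the Mmp13-/- mice, against 6.00, 6.22, 6.21 and 5.64 in the WT mice. In all, 3 of the 4 Mmp13-/- arrays were below every WT array, and the groups overlapped through Mmp13-/- replicate 1 and WT replicate 4 alone. The difference was -0.79 (SE 0.17, 95% confidence interval -1.15 to -0.43), with p = 0.000195 and an adjusted p of 0.0691 by limma, and an exact two-sided permutation p of 0.0571, where 0.0286 is the smallest that 4 against 4 arrays allow. By p-value it was rank 52 of the 18193 genes on that day. The call depended on single arrays: the adjusted p was 0.0248 (difference -0.97) without Mmp13-/- replicate 1 and 0.0391 (-0.91) without WT replicate 4, and reached 0.136 over all single arrays left out.

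At the earlier days the Angpt1 groups lay closer together. At 14 d the signal was 5.51, 5.47, 5.28 and 5.61 in Mmp13-/- tissue, against 5.61, 5.68, 5.90 and 5.84 in WT tissue, so that the groups met at 5.61. The difference was -0.29 (SE 0.17, adjusted p = 0.999), with an exact permutation p of 0.0571. At 7 d the values were 6.16, 5.61 and 5.89 in Mmp13-/- mice, against 5.95, 5.84 and 5.50 in WT mice, a difference of 0.12 (95% confidence interval -0.29 to 0.54). Ordered by mean, the groups ran WT 21 d (6.02), Mmp13-/- 7 d (5.89), WT 7 d and WT 14 d (5.76 each), Mmp13-/- 14 d (5.47) and Mmp13-/- 21 d (5.23), and every neighbouring pair in this order overlapped or met. The 2 genotypes thus stood at opposite ends of the order at 21 d. Across days this order of deposited signals mixes day and series, with a fitted term of 0.15 for series 2. The change of the genotype difference between 14 and 21 d was -0.50 (SE 0.24, adjusted p = 0.767).

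The second probe set of Angpt1 did not show this separation. It was dim, with a mean of 3.50 against a median of 4.22 over all probe sets, and at 21 d it averaged 3.21 ± 0.29 in Mmp13-/- mice and 3.32 ± 0.68 in WT mice (SD, n = 4 each). Over the 22 arrays, with the series term taken off, the 2 probe sets of Angpt1 correlated at 0.16.

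Angpt2, the context-dependent ligand, had its highest WT values at 21 d. It measured 7.49, 7.14, 7.35 and 7.41 in Mmp13-/- mice at 21 d, against 7.82, 7.76, 7.63 and 7.45 in WT mice. Only WT replicate 4 lay within the Mmp13-/- range. The difference was -0.32 (SE 0.13, 95% confidence interval -0.59 to -0.05, p = 0.0226, adjusted p = 0.334), with an exact permutation p of 0.0571. The second probe set, which was dim (mean 2.85), gave -0.26 (adjusted p = 0.421), and the 2 probe sets correlated at 0.68.

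At 14 d Angpt2 measured 7.08, 7.01, 7.45 and 7.06 in Mmp13-/- mice, against 7.42, 7.38, 7.47 and 7.10 in WT mice, a difference of -0.19 (adjusted p = 0.999). Mmp13-/- replicate 3 stood with the WT arrays, and WT replicate 4, the array of series 2, with the Mmp13-/- arrays. At 7 d the values were 7.03, 7.21 and 7.16 in Mmp13-/- mice, against 7.05, 7.53 and 6.94 in WT mice, with a difference of -0.04 (95% confidence interval -0.35 to 0.27). By mean the order was WT 21 d (7.67), Mmp13-/- 21 d (7.35), WT 14 d (7.34), WT 7 d (7.17), Mmp13-/- 14 d (7.15) and Mmp13-/- 7 d (7.13), with overlap between all neighbours. This order is of the signals as deposited and mixes day and series, as the fitted term of series 2 was -0.22.

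Tek encodes Tie2, the receptor for both ligands, and Tie1 its partner. Both are expressed chiefly in endothelium, and their signals moved together over the arrays (r = 0.63), so the bases before their starts are shown (RefSeq, GRCm38.p6). Of the 6 genes, Tek, Tie1 and Angptl2 were found in the promoter table. Each sequence is the 250 bases before the annotated start, read 5′ to 3′ on the gene's strand, for Tek chr4:94739039-94739288 on the + strand and for Tie1 chr4:118489850-118490099 on the - strand. Capitals mark AGGAA, or its reverse complement TTCCT, as 1 form of the GGAA core that ETS factors bind, a family with known roles in endothelial genes. GGAA or TTCC beside other bases was neither marked nor counted, and the Tie1 window holds such letters in lower case.
Tek: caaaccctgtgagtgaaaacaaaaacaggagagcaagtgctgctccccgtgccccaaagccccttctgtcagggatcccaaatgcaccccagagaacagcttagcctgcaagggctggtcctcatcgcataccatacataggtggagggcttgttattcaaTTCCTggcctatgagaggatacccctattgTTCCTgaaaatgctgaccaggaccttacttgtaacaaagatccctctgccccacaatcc
Tie1: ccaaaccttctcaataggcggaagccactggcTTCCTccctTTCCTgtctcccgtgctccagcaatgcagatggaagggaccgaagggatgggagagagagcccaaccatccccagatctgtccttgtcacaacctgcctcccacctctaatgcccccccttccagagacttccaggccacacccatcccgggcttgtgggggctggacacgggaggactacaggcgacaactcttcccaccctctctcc
Each window held 2 matches of the marked form, all on the reverse strand of the gene, at letters shared by many promoters. Of the 32851 promoter windows of this length, 26% held 2 or more such matches on either strand, and 60.3% at least 1. The GATA core AGATAA, also searched on both strands, was in neither window and in 9.99% of all windows. A match is a description of the letters only.

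Tek gave the clearest separation of the genotypes among the members at 21 d. It measured 5.57, 5.71, 5.54 and 5.51 in Mmp13-/- mice, against 6.12, 6.35, 5.85 and 6.44 in WT mice, and the highest Mmp13-/- array lay below the lowest WT array. The Mmp13-/- values lay within 0.20 of each other, and the WT values were spread 0.59 wide. The difference was -0.61 (SE 0.18, 95% confidence interval -0.99 to -0.23), with an adjusted p of 0.186. The exact permutation p was 0.0286, the smallest possible, and groups without overlap at 21 d were found in 2.98% of all probe sets. Tek was the only one of the 5 genes with such groups at 21 d.

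At 14 d Tek measured 6.05, 5.98, 6.27 and 5.14 in Mmp13-/- mice, against 6.19, 6.26, 7.13 and 5.60 in WT mice. The groups overlapped, WT replicate 3 stood highest, and the lowest array of each genotype was replicate 4, the array of hybridization series 2. The difference was -0.44 (SE 0.18, adjusted p = 0.999) with the series in the model and -0.43 within series 1. Within series 2, which held only 1 array of each genotype at 14 d, it was -0.46. With the series in the model but without WT replicate 3, the difference was -0.22. At 7 d the values were 6.08, 6.42 and 6.39 in Mmp13-/- mice, against 6.08, 6.52 and 5.82 in WT mice, a difference of 0.16 (95% confidence interval -0.28 to 0.60). In order of the means, Mmp13-/- 7 d and WT 14 d (6.30 each), WT 21 d (6.19) and WT 7 d (6.14) stood above Mmp13-/- 14 d (5.86) and Mmp13-/- 21 d (5.58), and all neighbours overlapped. This order is of the signals as deposited, and all 21 d arrays were of series 2, where the fitted term was -0.94. It thus mixes day and series. With the series in the model, Tek changed by 0.60 in WT and 0.43 in Mmp13-/- tissue between 14 and 21 d.

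Tie1 had the largest SD among the 5 genes in 5 of the 6 groups, the exception being WT 21 d (0.32, against 0.36 for Angptl4). At 7 d it measured 5.32, 5.94 and 6.22 in Mmp13-/- mice, against 3.47, 6.21 and 5.20 in WT mice, and the WT SD was 1.39. The difference of 0.87 (95% confidence interval -0.13 to 1.86, adjusted p = 1) was 0.12 without WT replicate 1, the array lowest in endothelial markers, and 1.49 without WT replicate 2. At 14 d the values were 5.98, 5.93, 6.25 and 4.35 in Mmp13-/- mice, against 5.83, 6.18, 6.97 and 4.94 in WT mice, a difference of -0.35 (SE 0.41, adjusted p = 0.999). Again replicate 4, from series 2, was the lowest array of each genotype.

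At 21 d Tie1 measured 4.83, 4.08, 5.10 and 3.81 in Mmp13-/- mice, against 5.28, 5.27, 4.61 and 5.18 in WT mice. Replicates 2 and 4 of Mmp13-/- were below all WT arrays and the other 2 were within the WT range. The difference was -0.63 (SE 0.41, 95% confidence interval -1.49 to 0.23, adjusted p = 0.571), with an exact permutation p of 0.171. The size was near that of Tek, with an SE of 0.41 against 0.18. By mean the groups ran WT 14 d (5.98), Mmp13-/- 7 d (5.83), Mmp13-/- 14 d (5.63), WT 21 d (5.09), WT 7 d (4.96) and Mmp13-/- 21 d (4.46), with overlap between all neighbours. These are means of the signals as deposited, and all 21 d arrays were of series 2, where the fitted term was -1.55. The order across days thus mixes day and series. With the series in the model, Tie1 changed by 0.26 in WT and -0.01 in Mmp13-/- tissue between 14 and 21 d.

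Angptl4 encodes a secreted inhibitor of lipoprotein lipase that does not bind Tie2 and is induced by fasting, PPAR ligands and low oxygen. It was measured by a probe set whose suffix, _s_at, marks probes shared by several transcripts. At 7 d it measured 9.47, 9.19 and 9.09 in Mmp13-/- mice, against 9.49, 9.82 and 9.48 in WT mice, so all Mmp13-/- arrays were below all WT arrays, the nearest by 0.01. The difference was -0.35 (SE 0.25, adjusted p = 1) and the exact permutation p was 0.1, the smallest that 3 against 3 arrays allow. Groups without overlap were found in 7.98% of all probe sets at 7 d.

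At 14 d Angptl4 measured 8.86, 8.84, 8.84 and 8.76 in Mmp13-/- mice, against 9.69, 9.33, 8.57 and 9.33 in WT mice. The Mmp13-/- arrays were nearly equal, and WT replicate 3 alone was below them. The difference was -0.41 (SE 0.22, adjusted p = 0.999), and was -0.24 without WT replicate 1 and -0.64 without WT replicate 3. No member had groups without overlap at 14 d, against 3.52% of all probe sets. At 21 d the values were 9.04, 8.36, 8.16 and 8.86 in Mmp13-/- mice, against 8.83, 8.77, 8.39 and 9.27 in WT mice, a difference of -0.21 (95% confidence interval -0.67 to 0.25). It ranged from -0.36 without Mmp13-/- replicate 1 to -0.06 without WT replicate 4. The means ran WT 7 d (9.60), Mmp13-/- 7 d (9.25), WT 14 d (9.23), Mmp13-/- 14 d (8.83), WT 21 d (8.82) and Mmp13-/- 21 d (8.61), and of neighbours in this order only the first 2 did not overlap. They are of the signals as deposited and mix day and series, with a fitted term of 0.02 for series 2. In Mmp13-/- mice all 14 d arrays were below all 7 d arrays, and the fitted change was -0.43 (SE 0.24, adjusted p = 0.952). The exact permutation p, over arrays of both series, was 0.0286, the smallest these group sizes allow. The share of all probe sets with such groups was not computed for this comparison. The second probe set of Angptl4 was dim (mean 2.16) and differed by 0.05 between the genotypes at 21 d.

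**Figure D2:**
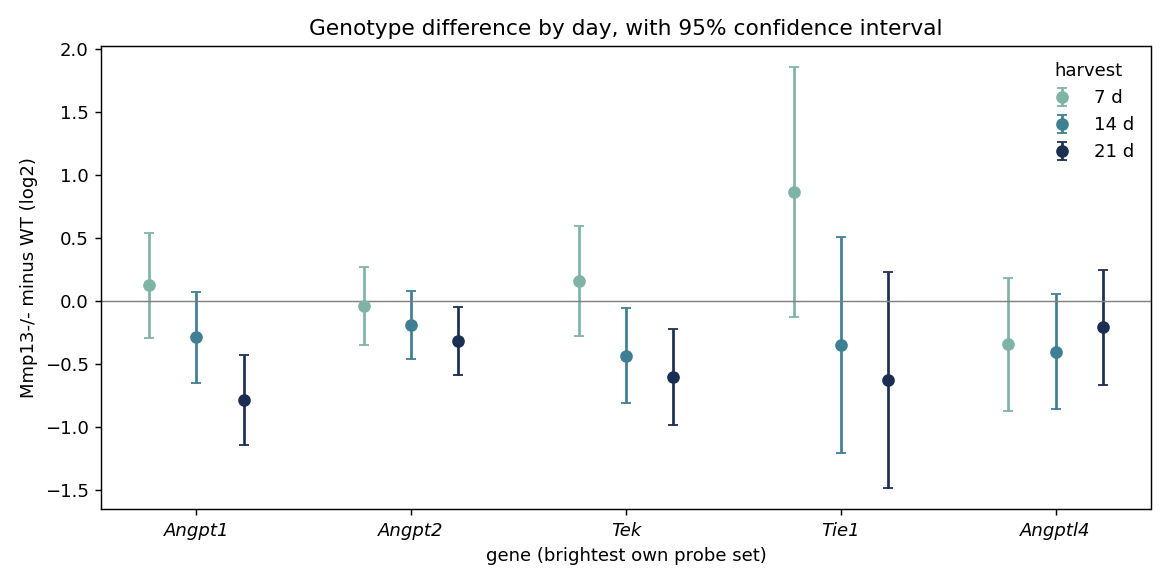
Fitted difference of Mmp13-/- minus WT (log2) for each measured gene at 7, 14 and 21 d, with 95% confidence intervals from limma. The 21 d intervals of Angpt1 (-1.15 to -0.43), Tek (-0.99 to -0.23) and Angpt2 (-0.59 to -0.05) lie below 0, before adjustment over all probe sets.

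No member was called, and the counts at an unadjusted p are set against all probe sets as follows. At 7 d 0 of the 5 genes were called, as were 0.00888% of all probe sets, and 0 had an unadjusted p under 0.05, against 2.16%. At 14 d 0 of 5 were called, against 0.0178% of all probe sets, and 1 (Tek) had an unadjusted p under 0.05, against 3.98%. At 21 d 0 of 5 were called, against 0.0488%, and 3 (Angpt1, Tek and Angpt2) had an unadjusted p under 0.05, against 11.9%. Averaged over the 3 days, 0 of 5 were called, against 0.0688%. There, 4 (Angpt1, Angpt2, Tek and Angptl4) had an unadjusted p under 0.05, against 6.56%.

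The averaged differences of those 4 genes were small, at -0.32 for Angpt1 (SE 0.10, adjusted p = 0.482), -0.18 for Angpt2, -0.30 for Tek and -0.32 for Angptl4. Tie1 averaged -0.04 (SE 0.25), since its 7 d difference had the opposite sign to those of 14 and 21 d. The Tie1 average depended on single arrays: it was -0.29 without WT 7 d replicate 1 and 0.17 without WT 7 d replicate 2. Whether the genotype difference changed with time was tested directly, and 0 members and 0% of all probe sets were called for its change between 7 and 14 d or between 14 and 21 d. Between 7 and 14 d 1 of 5 had an unadjusted p under 0.05 (Tek, -0.59, adjusted p = 1), against 2.29% of all probe sets. Between 14 and 21 d 0 of 5 did, against 6.58%.

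Within each genotype the change from day to day was measured as well. Between 7 and 14 d, Angpt1 in Mmp13-/- tissue differed by -0.46 (SE 0.19, adjusted p = 0.589), against -0.04 (SE 0.19) in WT tissue. The change of Angpt1 in Mmp13-/- tissue passed the test with weights per array (-0.53, adjusted p = 0.0205). Tie1 differed by 0.19 (SE 0.46) in Mmp13-/- tissue, against 1.41 (SE 0.46, adjusted p = 0.165) in WT tissue. This WT value was 0.66 without WT 7 d replicate 1, and 2.03 with an adjusted p of 0.0192 without WT 7 d replicate 2. In Mmp13-/- tissue 0 of 5 members were called, against 0.628% of all probe sets, and 1 had an unadjusted p under 0.05, against 6.65%. In WT tissue 0 were called, against 1.7%, and 1 had an unadjusted p under 0.05, against 10.1%.

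Between 14 and 21 d the series changes with the day for all but 1 mouse of each genotype, so the fitted change rests on replicate 4 of 14 d. The series term itself passed the test for both receptors, with series 2 minus series 1 at -0.94 for Tek (adjusted p = 0.00462) and -1.55 for Tie1 (adjusted p = 0.0358), as it did for 13.3% of all probe sets. Only 14 d held both series, so this term, too, rests on replicate 4 of each genotype. A trait of those mice cannot be told apart from an effect of the series. Angpt2 differed by 0.36 (SE 0.17, adjusted p = 0.353) in Mmp13-/- tissue and by 0.49 (SE 0.17, adjusted p = 0.193) in WT tissue. Tek differed by 0.43 (SE 0.24, adjusted p = 0.446) in Mmp13-/- tissue and by 0.60 (SE 0.24, adjusted p = 0.261) in WT tissue. Without the series term the change of Tek had the opposite sign, at -0.28 in Mmp13-/- tissue and -0.11 in WT tissue. In Mmp13-/- tissue 0 of 5 members were called, against 0.0799% of all probe sets, and 1 had an unadjusted p under 0.05, against 13.7%. In WT tissue 0 were called, against 0.42%, and 2 had an unadjusted p under 0.05, against 14.1%.

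The members did not share 1 pattern over the arrays. With the series term taken off, Angpt2 and Tek correlated at 0.80, Tek and Tie1 at 0.63 and Angpt2 and Tie1 at 0.59, whereas Angpt1 correlated at 0.03 with Angpt2, 0.18 with Tek and 0.02 with Tie1. Angptl4 ran at -0.37 to -0.33 with Angpt2, Tek and Tie1 and at 0.37 with Angpt1. These values describe the 22 arrays, whose mice share genotype, day and series.

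Among 11788 genes with a signal above the median, the closest pattern to Tie1 was that of Cdh5 (r = 0.95), which encodes the endothelial junction protein VE-cadherin, followed by the endothelial adhesion molecule Pecam1 (0.94) and the secreted endothelial factor Egfl7 (0.93). The closest to Tek was Ramp2 (0.89), a partner of the adrenomedullin receptor, followed by Snn (0.86) and Afap1l2 (0.85). Angpt2 was followed most closely by Cpz (0.94), a secreted carboxypeptidase, Enpp5 (0.91) and Srpx (0.91). Lhfp (0.84), Mcrip1 (0.80) and Ccdc149 (0.79) came nearest to Angpt1. Angptl4 had Pex16 (0.84), a peroxisome assembly gene, the chemokine Ccl9 (0.83) and the acute-phase gene Serpina3n (0.83). Each r was picked as among the highest of the 11788 genes. Within the 12 arrays of series 1 the r of these pairs ranged from 0.65 (Lhfp with Angpt1) to 0.99 (Cdh5 with Tie1), with 0.68 for Enpp5 and Angpt2. The nearest genes of the receptors thus included endothelial markers, and those of the ligands and Angptl4 did not.

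Of the 19 endothelial markers listed, all were measured and all had a mean signal above the median of all probe sets. With the series term taken off, their mean signal followed Tie1 at r = 0.94 (rank correlation 0.85), Tek at 0.72 (0.84) and Angpt2 at 0.63 (0.70) over the 22 arrays. With the signals as deposited, in which series 2 was lower for both receptors, r was 0.57 for Tie1, 0.38 for Tek and 0.56 for Angpt2. Without the 2 arrays farthest from the median, WT 7 d replicate 1 and WT 14 d replicate 3, the values with the series taken off were 0.84, 0.86 and 0.75. On the same scale Angpt1 stood at -0.04 over all arrays, but at -0.17 within the 12 arrays of series 1 and 0.54 within the 10 arrays of series 2. Angptl4 stood at -0.38, with -0.45 within series 1 and 0.49 within series 2.

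**Figure D3:**
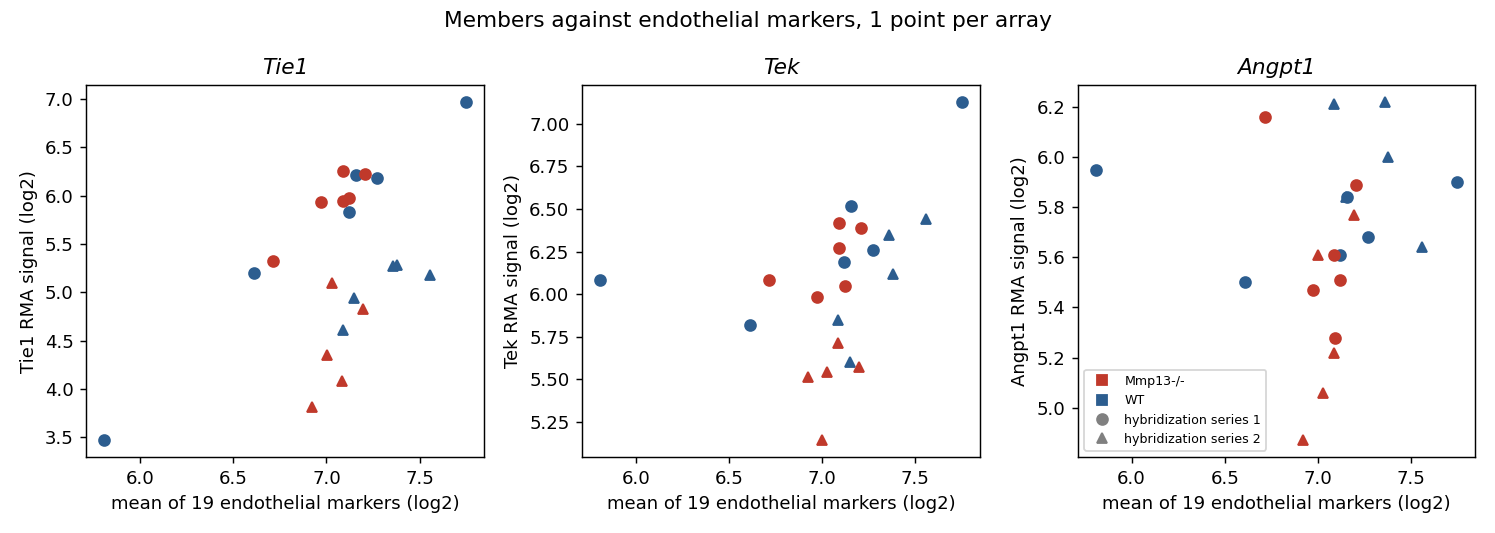
Signal (log2) of Tie1, Tek and Angpt1 on each of the 22 arrays against the mean signal of 19 endothelial markers (log2), with Mmp13-/- mice in red and WT mice in blue, series 1 as circles and series 2 as triangles, and the series not taken off. Tie1 and Tek run upwards with the marker mean within each series, WT 7 d replicate 1 is the array at the far left (5.81), and Angpt1 shows no slope in series 1.

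The endothelial markers differed in the same direction as the receptors on each day. At 21 d 16 of the 19 had a lower signal in Mmp13-/- tissue, with a median difference of -0.36, and 0 were called, and their mean signal per array was 6.92 to 7.20 in Mmp13-/- mice, against 7.09 to 7.56 in WT mice. Eng, an endothelial co-receptor for TGF-beta, came closest to a call, at -0.42 (SE 0.09, adjusted p = 0.0667). Ramp2 differed by -0.56 (adjusted p = 0.154), whereas Flt1, a receptor for VEGF-A, differed by 0.40 (adjusted p = 0.273). The difference of Tek, -0.61, was beyond the median of the markers and within their range. At 14 d 18 of 19 had a lower signal, with a median of -0.19. The part of the marker levels in the differences of Tek, Tie1 and Angpt2 was not tested.

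At 7 d the markers stood the other way. Of the 19, 17 had a higher signal in Mmp13-/- tissue with a median of 0.60, but 0 were called. An unadjusted p under 0.05 was found for 8, against 2.16% of all probe sets. Without WT 7 d replicate 1 the median was 0.13, with none of the 19 higher and 1 lower at that threshold. Between 7 and 14 d, 0 of the 19 rose and 1 fell in Mmp13-/- tissue (Cd34, -1.50, adjusted p = 0.0247), with a median over the list of 0.14. In WT tissue 6 rose (Flt1, Eng, Robo4, Erg, Sox18 and Plvap), with a median of 1.04. Over these days 0.628% of all probe sets were called in Mmp13-/- and 1.7% in WT tissue, and the median over all genes was within 0.01 of 0 in both. Without WT 7 d replicate 1, 1 of the 19 (Sox18) rose in WT tissue and the median was 0.53. The change of the genotype difference from 7 to 14 d passed the test for 0 of the 19. With all arrays 10 had an unadjusted p under 0.05, against 2.29% of all probe sets, and 3 did without WT 7 d replicate 1.

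**Figure D4:**
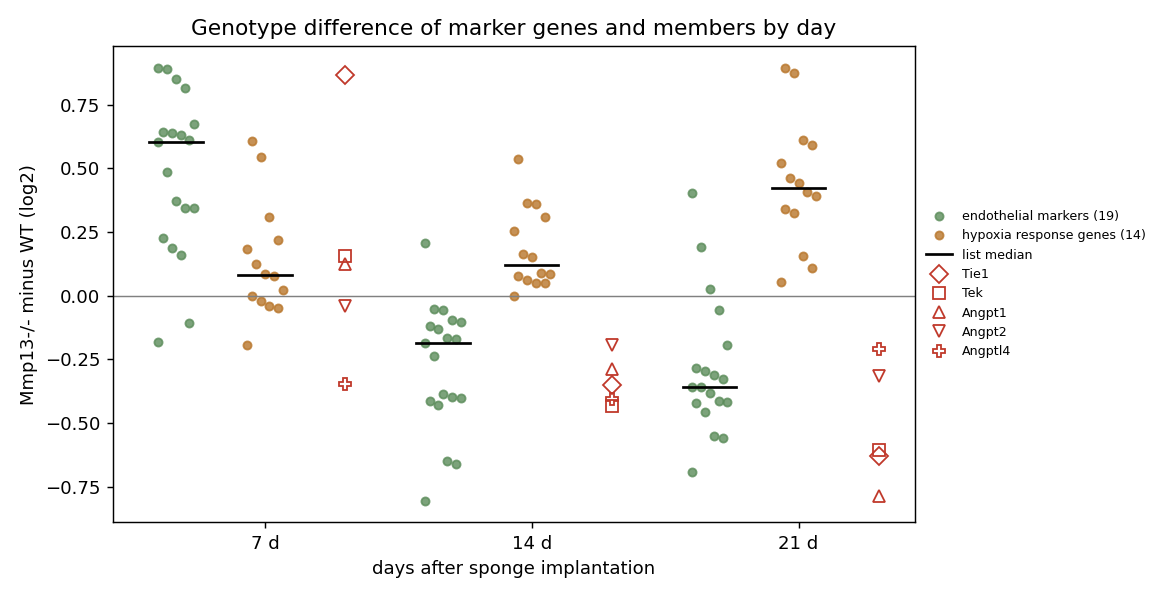
Difference of Mmp13-/- minus WT (log2) at 7, 14 and 21 d for the 19 endothelial markers (green), the 14 hypoxia response genes (orange) and the 5 members (open red symbols), with list medians as bars. The endothelial median lies at 0.60, -0.19 and -0.36 and the hypoxia median at 0.08, 0.12 and 0.42, and at 21 d all 5 members lie below 0.

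Of the other genes of the family, 4 of 5 listed were measured (Angpt4, Angptl1, Angptl6 and Angptl7). None was called between the genotypes on any day. Angpt4, the mouse orthologue of a human Tie2 ligand, differed by -0.48 (SE 0.17, adjusted p = 0.264) at 21 d, and Angptl1 by -1.14 at 14 d and -1.03 at 21 d (adjusted p = 0.999 and 0.397). Angpt4 rose between 7 and 14 d in WT tissue (0.75, adjusted p = 0.0493, but 0.108 without WT 7 d replicate 1), and its mean was 5.58 at 14 d and 5.03 at 7 d in Mmp13-/- tissue, against 5.57 and 4.83 in WT tissue.

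Of 20 partners and signalling genes of the Tie receptors, 19 were measured and 0 were called between the genotypes, with medians of 0.04, 0.00 and 0.00 at 7, 14 and 21 d. Between 7 and 14 d in WT tissue 1 rose and 1 fell, where 1.7% of all probe sets were called. Svep1, a large matrix protein that binds Tie1, rose by 1.63 (adjusted p = 0.000464), and Dok2, an adaptor of Tie2 that is also abundant in leukocytes, fell by 0.89 (adjusted p = 0.000787), and both passed the test without WT 7 d replicate 1 too. At 21 d Svep1 averaged 8.60 in Mmp13-/- mice and 9.14 in WT mice, a difference of -0.55 (SE 0.20, adjusted p = 0.273). The regulatory subunit Pik3r1 of PI 3-kinase differed by -0.28 (adjusted p = 0.222) at 21 d.

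All 12 transcriptional regulators listed for Angpt2 and the Tie genes were measured, 2 of them below the median signal, and 0 were called between the genotypes. Between 7 and 14 d 0 of 12 were called in Mmp13-/- tissue, where 1 had an unadjusted p under 0.05, against 6.65% of all probe sets. In WT tissue 1.7% of all probe sets were called. In WT tissue 2 rose over the same days, Epas1 (HIF-2alpha, 1.28, adjusted p = 0.0121) and the ETS factor Erg (1.17, adjusted p = 0.0404), and the flow-responsive factor Klf2 fell by 0.81 (adjusted p = 0.0158). Without WT 7 d replicate 1 the change was 0.85 for Epas1 (adjusted p = 0.0497), 0.74 for Erg (adjusted p = 0.187) and -0.73 for Klf2 (adjusted p = 0.0683), so Epas1 alone still passed. The test of the difference between the genotypes in this change called 0 of 12.

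All 14 hypoxia response genes listed were measured, and all 14 had a higher signal in Mmp13-/- than in WT tissue at 21 d (median difference 0.42). An unadjusted p under 0.05 was found for 11 of them, against 11.9% of all probe sets, and 0 were called, against 0.0488%. The list mean per array was 8.49 to 9.06 in Mmp13-/- mice, against 8.09 to 8.40 in WT mice, and the groups did not overlap. No share over all genes was computed for such list means. Among the 14 genes Egln3, an oxygen-sensing hydroxylase, differed by 0.90 (adjusted p = 0.141), Vegfa by 0.61 (adjusted p = 0.167) and Bnip3 by 0.59 (adjusted p = 0.137). Angptl4, which low oxygen induces in cultured cells, differed by -0.21 in the same arrays. Between 14 and 21 d in WT tissue Bnip3 fell by 0.96 (adjusted p = 0.0499) and Ndrg1 by 0.93 (adjusted p = 0.0497). Both lay just under the threshold, which 0.42% of all probe sets passed. These fitted changes rest on replicate 4 of 14 d. That array had the highest mean of the hypoxia genes among the WT 14 d arrays (9.02, against 8.54 to 8.85).

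Of the 14 genes listed for the lipoprotein lipase system on which Angptl4 acts, 13 were measured, and 0 were called between the genotypes. Lmf1, a maturation factor of the lipase, differed by -0.49 (SE 0.11, adjusted p = 0.068) at 21 d, and the receptor Vldlr by 0.79 (SE 0.23, adjusted p = 0.179). Gpihbp1, which holds the lipase on capillary endothelium, rose by 1.62 between 7 and 14 d in WT tissue (adjusted p = 0.0154), and differed by 1.23 without WT 7 d replicate 1 (adjusted p = 0.0853). Lpl itself differed by 0.17 at 7 d and 0.15 at 14 d (adjusted p = 1 and 0.999).

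Markers of other cell types were also compared. The 8 adipocyte markers measured, of 10 listed and 3 of them below the median signal, all had a lower signal in Mmp13-/- tissue at 7 d and at 14 d (medians -0.23 and -0.22, 0 called), where that of Angptl4 was lower too. Their mean per array was 5.57 to 6.34 in Mmp13-/- mice and 5.91 to 7.53 in WT mice at 7 d. At 14 d all 10 keratinocyte markers, 6 of them below the median signal, had a lower signal in Mmp13-/- tissue (median -1.02, 0 called), with means of 4.05 to 4.44 in Mmp13-/- mice, against 4.47 to 6.23 in WT mice. WT 14 d replicates 1 and 3 were the high arrays, and without both the 14 d difference was -0.28 for Tek, -0.25 for Angpt1 and -0.52 for Angptl4. The part of the adipocyte markers in the Angptl4 difference was not tested. The signals of the 10 skeletal muscle markers varied widely within groups, with means per array at 7 d of 6.75 to 10.31 in Mmp13-/- mice and 6.10 to 10.55 in WT mice, where WT replicate 1 was the lowest array. In WT tissue all 10 had a positive change between 7 and 14 d (median 0.76, 0 called), and without WT 7 d replicate 1 only 1 did (median -0.55). Their part in the changes of Tie1 and the endothelial markers was not tested.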

How the data were processed

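Total RNA from the ends of each sponge had been hybridized to Affymetrix mouse genome-wide arrays, which measure the 3′ part of transcripts. The authors normalized all 22 arrays together with RMA and deposited log2 signals with 2 decimals (range 1.43 to 13.77, array medians 4.16 to 4.27). The number of arrays limits the precision. From the table, 64 control probe sets were left out and 45037 were tested; 34945 were annotated to 1 gene, 932 to several and 9160 to none here. limma 3.58.1 in R 4.3.3 fitted the 6 groups plus the hybridization series (15 residual degrees of freedom) and 10 contrasts, with Benjamini-Hochberg adjustment over all probe sets. Exact permutation tests over arrays were two-sided. Each gene was taken by its brightest own probe set. The members, gene lists and tests were chosen with earlier results of these data known. Of each list, called genes and otherwise the 3 with the smallest p could be named, and for each member the 3 genes with the highest Pearson correlation. The fit was tested on simulated data. Alternatives left out the series term, single arrays or 1 series, added the replicate number, array weights or an intensity trend, rescaled the arrays, averaged probe sets, and dropped dim probe sets. Leaving out WT 7 d replicate 1 for the lists and their genes, and WT 14 d replicates 1 and 3 together, was chosen after seeing the data. The array description names no genome build, and none was used for the signals.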

Additional observations from a re-analysis of the deposited data

Results flagged for a closer look

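In 3 of the 32 groups of 4 arrays (8 probe sets, 14 d and 21 d), 1 array stood apart from the other 3 by more than Dixon's critical share of the group's range, and chance gives this in about 1 group of 20. Angpt2 in Mmp13-/- tissue at 14 d measured 7.45 in replicate 3, above 7.01 to 7.08 in the others. Tie1 in Mmp13-/- tissue at 14 d measured 4.35 in replicate 4, the only array of that group from hybridization series 2, below 5.93 to 6.25 in the others. Tie1 in WT tissue at 21 d measured 4.61 in replicate 3, below 5.18 to 5.28 in the others.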

How the results depend on the processing

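Over 11 other settings, 482 of 495 member values kept their direction and their side of the threshold, 12 changed sign and 1 passed the test. Without the series term the change between 14 and 21 d was -0.28 for Tek in Mmp13-/- tissue, against -0.11 for Tek and -0.90 for Tie1 in WT tissue, and that of Tie1 between 7 and 14 d in Mmp13-/- tissue was -0.20. Tie1 between 14 and 21 d in Mmp13-/- tissue was 0.105 from only the arrays compared and from series 2 alone, and 0.021 with array weights, where Tek at 7 d was -0.02 and 1 member, Angpt1, was called between 7 and 14 d in Mmp13-/- tissue. Angpt2 at 7 d was 0.08 as the mean of its probe sets. The replicate numbers are shared between the genotypes, but no source says that they pair mice. Deviations from the group mean correlated at r over 0.1 in 6 of 11 such pairs (range -0.16 to 0.61). The highest was replicate 4 of 14 d, the pair from series 2. A pairing was thus neither shown nor excluded. With a replicate block the change between 14 and 21 d was 0.12 for Angptl4 in Mmp13-/- tissue. It was -0.22 for Angpt1 and -0.011 for Tie1 in WT tissue, and no call changed.

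Leaving out single arrays gave 24 sign changes and 3 new calls among 1100 values. Called members ranged from 0 to 1 at 21 d (Angpt1) and between 7 and 14 d in WT tissue (Tie1). At 7 d the difference ranged from -0.013 to 0.26 for Angpt1, -0.16 to 0.14 for Angpt2 and -0.0033 to 0.35 for Tek, and averaged over days from -0.29 to 0.17 for Tie1. Between 7 and 14 d the change ranged from -0.18 to 0.05 for Angpt1 in WT tissue, -0.029 to 0.15 for Angpt2 and -0.066 to 0.38 for Tie1 in Mmp13-/- tissue, and its genotype difference from -0.29 to 0.11 for Angptl4. Tie1 between 14 and 21 d in Mmp13-/- tissue ranged from -0.23 to 0.20. The cause of these changes was not tested. The second probe sets of Angpt1, Angpt2 and Angptl4 lay below the median of all probe sets. Whether low signal limited them was not tested.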

Other observations

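Mural cells and fibroblasts are known sources of angiopoietin-1. Of 12 pericyte and mural cell markers, 1 rose between 7 and 14 d in Mmp13-/- tissue, the contractile gene Tagln (1.88, adjusted p = 0.00502), and 4 in WT tissue, the receptors Pdgfrb (1.57) and Notch3 (1.37) and the contractile genes Acta2 (1.14) and Tagln (1.83). Over these days 0.628% of all probe sets were called in Mmp13-/- and 1.7% in WT tissue. Without WT 7 d replicate 1, 1 of the 12 (Tagln) rose in WT tissue. Between the genotypes 0 of the 12 were called on any day, with medians of 0.33, -0.17 and -0.22 at 7, 14 and 21 d, and the 7 d median was -0.03 without that array. With the series term taken off, Tie1 followed the mean of this list at r = 0.89 over the 22 arrays and Angpt1 at -0.20, and in the signals as deposited at 0.42 and -0.10. In the deposited signals WT 7 d replicate 1 was the lowest array of both Tie1 (3.47) and this list (5.76). These r were not computed without it. Of 10 fibroblast markers, the matrix proteoglycan Lum alone was called at 14 d, lower in Mmp13-/- tissue (-0.94, adjusted p = 0.0274), against 0.0178% of all probe sets. On that day 9 of the 10 had a lower signal and 6 an unadjusted p under 0.05, against 3.98%. At 21 d 9 of the 10 had a lower signal (median -0.11, 0 called), and 3 had an unadjusted p under 0.05, against 11.9%. Angpt1 followed the mean of the fibroblast list at r = 0.54 over the 22 arrays with the series taken off, at 0.53 in the signals as deposited and at 0.52 within series 1.

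Of 6 lymphatic endothelial markers, 5 were measured. Reln rose by 3.24 between 14 and 21 d in WT tissue (adjusted p = 0.0227), and 0 of the 5 were called in Mmp13-/- tissue. These fitted changes rest on replicate 4 of 14 d. As deposited, Reln averaged 5.035 at 14 d and 6.6 at 21 d in Mmp13-/- tissue, against 4.25 and 7.26 in WT tissue. Angpt2, which takes part in lymphatic growth in mice, followed the mean of the 5 markers at r = 0.80 over the 22 arrays with the series taken off, but at 0.23 within series 1.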
